A study of Rattus norvegicus with 16 samples.

Results

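The genes described here make reactive oxygen and nitrogen species in the colonic epithelium, or help the enzymes that do. They are the dual oxidases Duox1 and Duox2 with their maturation factors Duoxa1 and Duoxa2, the NADPH oxidase Nox1 with its partners Noxo1, Noxa1 and Cyba, and the inducible nitric oxide synthase Nos2. Of these 9 genes, 8 were matched to a probe through the RefSeq transcript named for that probe, out of 15159 gene symbols with a probe in all. Noxo1 was not matched and is not analysed here. Each of the 8 had 1 probe, printed as 2 spots, which was well above background on all 16 arrays.

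The arrays measured total RNA from normal distal colon of 16 male (ACIxF344)F1 rats aged 97 days, 4 rats in each of 4 groups and 1 one-colour array per rat. Pirc rats (Pirc/+) carry 1 mutant and 1 wildtype copy of Apc, the tumor suppressor that restrains Wnt signalling, in every cell, and develop colonic adenomas. Their wildtype counterparts are of the same cross with 2 intact copies. In each genotype 4 rats were untreated and 4 drank 4% dextran sodium sulfate (DSS), a detergent-like polymer that damages the colonic lining and causes colitis, from day 40 to 47 and again from day 54 to 61, so that 36 days passed between the last DSS and sampling.

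DUOX and NOX enzymes pass electrons from NADPH across a membrane to oxygen. DUOX1 and DUOX2 release hydrogen peroxide at the apical face of epithelial cells. To leave the endoplasmic reticulum they need a maturation factor, DUOXA1 or DUOXA2. NOX1, the main NADPH oxidase of colonic epithelium, makes superoxide and works with the membrane subunit p22phox (Cyba), the organizer Noxo1 and the activator Noxa1. NOS2 makes nitric oxide from arginine, and its gene is known as one that bacterial products and cytokines switch on. In the gut, DUOX2 and its maturation factor are known for their response to microbes and inflammation.

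The list was selected on earlier results from these same arrays, and the difference of Duoxa2 between Pirc and wildtype rats was among the values that chose it. Differences between genotypes are therefore given as a description, with no test for any member. The change after DSS, and the difference of that change between genotypes, were tested with limma over all 30367 probes. In this balanced design the mean DSS change over both genotypes is a separate contrast from the mean genotype difference. The change within each genotype shares its rats with the genotype differences. The difference between the DSS effects equals the genotype difference with DSS minus that without. The p-values of these contrasts are therefore not free of how the list was chosen. Levels are log2 signals relative to the 75th percentile of each array, so a level of 0 equals that percentile and a step of 1 is a factor of 2. The levels of different genes come from different probes and are not compared.

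As a check of the tissue, 10 of 11 colon epithelium markers had a probe, and all 10 were well above background on every array. Their summed linear level lay between 631 and 790 in untreated wildtype, 699 and 866 in DSS-treated wildtype, 547 and 769 in untreated Pirc and 604 and 792 in DSS-treated Pirc rats. Markers of other cells moved with DSS. The 8 measured markers of stratified squamous epithelium summed to between 0.228 and 0.866 in the untreated rats of both genotypes, to between 16.1 and 95.2 in Pirc rats after DSS, and to 2.56, 4.63, 35.9 and 0.237 in the 4 DSS-treated wildtype rats 14, 18, 22 and 26. The 9 neutrophil markers summed to between 0.478 and 0.85 in untreated and 1.01 and 4.47 in DSS-treated wildtype rats, and to between 1.09 and 1.86 in untreated and 9.27 and 37.9 in DSS-treated Pirc rats. S100a8 and S100a9 made up 70.1% to 99.2% of the neutrophil sum, and without them it was between 0.132 and 0.153 in untreated and 0.124 and 0.165 in treated wildtype rats, and between 0.106 and 0.191 in untreated and 0.158 and 0.315 in treated Pirc rats, overlapping in both genotypes. Squamous Ivl and neutrophil Elane and Ngp had every spot well above background on no array. In bulk tissue a change in the share of a cell type cannot be told apart from a change in RNA per cell.

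After DSS, 4 of the 8 measured genes rose when averaged over both genotypes: Nox1, Duoxa2, Duox2 and Nos2. Over all probes 10.2% rose by the same criterion, an adjusted p of 0.05 or less, and 6.99% fell; no member fell. The median log2 change was 0.87 over the 8 members and 0.06 over all probes. Quantile normalization in place of percentile scaling put the median of all probes at -0.06 and turned the 3111 probes higher and 2123 lower into 2671 higher and 3730 lower, and the number of members called was 4 under either scaling. Duox1, Duoxa1, Noxa1 and Cyba did not pass the test.

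**Figure D1:**
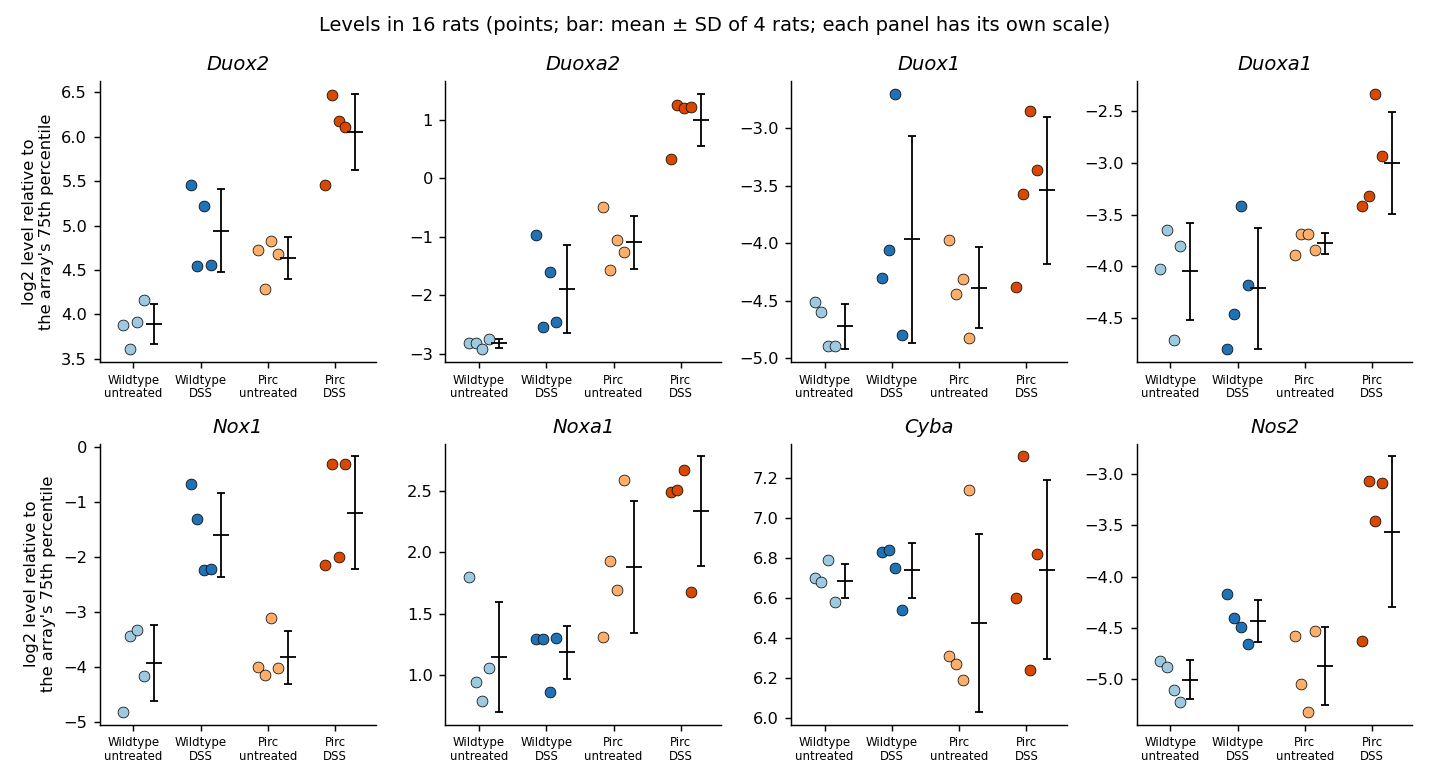
Log2 level of each measured gene in each of the 16 rats, relative to the 75th percentile of the array, by genotype and treatment; points are rats, bars the mean ± SD of 4 rats, and each panel has its own vertical scale. Duoxa2 in Pirc rats after DSS (0.34 to 1.25) lies above every other rat, while Cyba overlaps between all groups.

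Duox2 and Duoxa2, the colonic dual oxidase and its maturation factor, lie side by side and are read in opposite directions. They are part of a cluster whose order on chromosome 3 is Duox2, Duoxa2, Duoxa1 and Duox1. The stretch between the Duox2 start and Duoxa2 is shown because both genes lie at its ends and their levels moved together. It is at chr3:129698754-129698937 on the minus strand of GRCr8 (RefSeq), 184 bases that end at the base before the Duox2 start, and the capitals mark a TATAAA motif read on the opposite strand, the strand of Duoxa2, beginning 163 bases before the Duox2 start.
Duox2 upstream: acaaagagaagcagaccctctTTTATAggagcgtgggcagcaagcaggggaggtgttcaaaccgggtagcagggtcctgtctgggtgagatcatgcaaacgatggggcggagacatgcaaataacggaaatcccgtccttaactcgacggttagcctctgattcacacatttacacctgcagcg

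Of the 33469 upstream windows of 250 bases in the RefSeq table, 12.9% held TATAAA on either strand. The table held windows for 7 of the 9 members (all but Duoxa2 and Nos2), and Duox2 was the only 1 of these 7 with a match.

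Untreated wildtype rats had Duox2 levels of 3.88, 3.61, 3.91 and 4.16, and wildtype rats after DSS had 5.45, 4.54, 5.22 and 4.56. In Pirc rats the levels were 4.72, 4.29, 4.83 and 4.68 without DSS and 5.46, 6.47, 6.18 and 6.11 with it. All 4 treated rats were above all 4 untreated rats in each genotype. Duox2 rose by 1.24 ± 0.17 (log2 change ± SE) over both genotypes, a factor of 2.36, with an adjusted p of 0.000196 by limma. It rose by 1.42 ± 0.24 in Pirc rats (adjusted p = 0.00141, limma) and by 1.05 ± 0.24 in wildtype rats (adjusted p = 0.0268, limma).

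Duoxa2 varied least in untreated wildtype rats, at -2.82, -2.81, -2.92 and -2.74. After DSS, wildtype rats had -0.97, -2.54, -1.60 and -2.46. Pirc rats had -0.49, -1.56, -1.05 and -1.26 without DSS and 0.34, 1.25, 1.20 and 1.23 with it. The treated and untreated rats did not overlap in either genotype, and among the treated Pirc rats 3 lay between 1.20 and 1.25 while rat 12 was lower.

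Over both genotypes Duoxa2 rose by 1.51 ± 0.23, a factor of 2.86 (adjusted p = 0.000397, limma). In Pirc rats alone it rose by 2.10 ± 0.33, a factor of 4.28 (adjusted p = 0.00078, limma). In wildtype rats the change was 0.93 ± 0.33 and missed the threshold (adjusted p = 0.144, limma). The difference between the DSS effects was 1.17 ± 0.46, larger in Pirc rats, with an unadjusted p of 0.0239 and an adjusted p of 0.391 by limma, so a larger response of Duoxa2 in Pirc rats did not pass the test over all probes.

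The levels of Duox2 and Duoxa2 also followed each other from rat to rat when deviations inside the 4 groups were pooled. Each level was expressed as a deviation from the mean of its group, and the deviations had the same sign in 12 of 16 rats. Pearson's r of the deviations was 0.86 and Spearman's rho 0.89, with permutation p of 0.00161 and 0.00128 (100000 permutations within groups, two-sided). Over the 28 pairs of members compared in this way the Benjamini-Hochberg adjusted permutation p was 0.0451 for r and 0.0358 for rho, and this was the only pair at 0.05 or less for r. Without the 2 rats farthest from the median of Duox2, r was 0.78. Deviations from the means of group and slide gave r of 0.93. Duoxa2 varied unequally between groups, with an SD of 0.07 in untreated and 0.75 in DSS-treated wildtype rats. In untreated and treated Pirc rats its SD was 0.45 and 0.44. The correlation inside each single group was not tested. The neighbours Duoxa1 and Duox1, themselves a pair read in opposite directions, had r of 0.67 and rho of 0.57 (permutation p = 0.0294 and 0.0452, adjusted 0.275 and 0.276), which missed the threshold over the 28 pairs. Duox2 and Duoxa1 had r of 0.07 (permutation p = 0.84, adjusted 0.91).

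**Figure D2:**
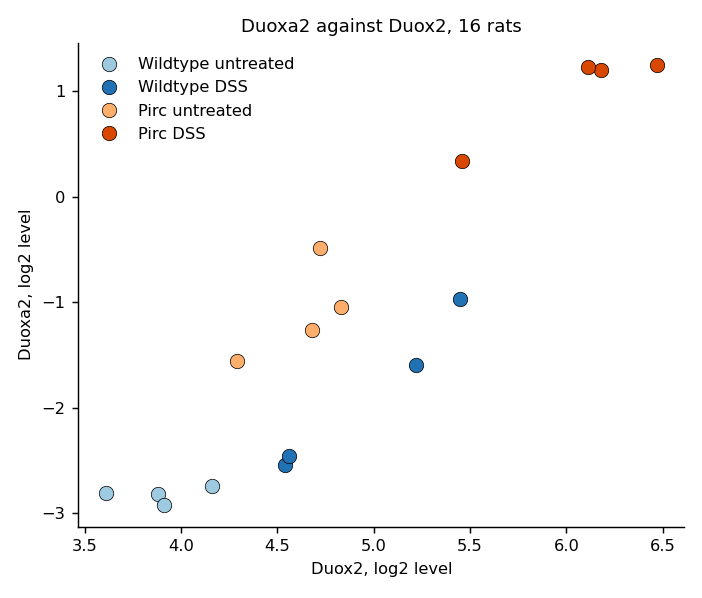
Log2 level of Duoxa2 (vertical) against that of Duox2 (horizontal) in the 16 rats, each on the scale of its own probe, with colours for the 4 groups. Within wildtype rats after DSS the rats with the 2 higher Duox2 levels, 5.45 and 5.22, are those with the 2 higher Duoxa2 levels, -0.97 and -1.60.

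Duox1, the other dual oxidase, had levels of -4.51, -4.60, -4.89 and -4.89 in untreated wildtype rats and -4.30, -4.06, -2.70 and -4.80 after DSS. Pirc rats had -3.97, -4.44, -4.31 and -4.82 without DSS and -4.38, -3.57, -2.85 and -3.36 with it. The groups overlapped in both genotypes, through rat 26 in wildtype and rat 12 in Pirc rats. The change over both genotypes was 0.80 ± 0.27 and just missed the threshold (adjusted p = 0.0584, limma). It passed when dim probes were left out of the fit (adjusted p = 0.0383, limma) and without rat 12 or rat 26 (adjusted p = 0.0246 and 0.0221, limma). It missed the same threshold under every other processing setting and with any other rat left out. With quantile normalization the change was 0.62 (adjusted p = 0.146, limma). Within slides 1 and 2 it was 0.3 and 1.3 (adjusted p = 0.447 and 0.268, limma). With each rat left out it lay between 0.59 and 0.94 (adjusted p between 0.0221 and 0.119, limma). Rat 22 with the highest Duox1 of the treated wildtype rats also had their highest sum of squamous markers (35.9) and rat 26 with the lowest Duox1 their lowest sum (0.237). Among treated Pirc rats the same was true of rat 20 (95.2) and rat 12 (16.1). The part of squamous epithelium in these levels was not tested.

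Duoxa1, the maturation factor of DUOX1, had levels of -4.03, -3.65, -4.71 and -3.80 in untreated wildtype rats and -4.80, -4.46, -3.42 and -4.18 after DSS. Pirc rats had -3.89, -3.69, -3.69 and -3.84 without DSS and -3.42, -3.32, -2.33 and -2.93 with it. The treated Pirc rats were all above the untreated ones, by a change of 0.78 ± 0.30 that missed the threshold (adjusted p = 0.105, limma). In wildtype rats the change was -0.17 ± 0.30 (adjusted p = 0.833, limma). The difference between these effects was 0.94 ± 0.43 with an unadjusted p of 0.044 and an adjusted p of 0.455 by limma.

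Nox1, the superoxide-making oxidase of the colonic epithelium, had the largest change of the 8 members after DSS. Its upstream sequence is shown because it was the only one of the 7 member windows with a match to the NF-kappaB consensus, a motif of inflammatory gene control. It lies at chrX:101595521-101595770 on the minus strand of GRCr8 (RefSeq), 250 bases ending before the start that the table uses, with the match in capitals, which reads as the consensus on the opposite strand and begins 103 bases before the start.
Nox1 upstream: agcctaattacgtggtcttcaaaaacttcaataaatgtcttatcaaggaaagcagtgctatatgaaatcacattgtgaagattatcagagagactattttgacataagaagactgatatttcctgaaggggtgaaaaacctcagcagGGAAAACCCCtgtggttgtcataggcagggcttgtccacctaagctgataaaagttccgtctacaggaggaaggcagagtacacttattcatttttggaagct

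The NF-kappaB consensus was found, on either strand, in 3.54% of all 33469 windows. TTCNNNGAA, the motif of STAT factors, was in 7.67% of windows and TGACTCA, an AP-1 motif, in 4.05%, and neither was in any of the 7 member windows. A match describes letters in a window and not a bound site.

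Nox1 levels were -4.82, -3.43, -3.33 and -4.16 in untreated and -0.66, -1.30, -2.24 and -2.21 in DSS-treated wildtype rats. They were -4.01, -4.15, -3.11 and -4.03 in untreated and -2.15, -0.31, -1.99 and -0.30 in DSS-treated Pirc rats. Every treated rat was above every untreated rat, of either genotype. Nox1 rose by 2.48 ± 0.35 over both genotypes, a factor of 5.6 (adjusted p = 0.000227, limma). The rise was 2.64 ± 0.50 in Pirc rats (adjusted p = 0.00274, limma) and 2.33 ± 0.50 in wildtype rats (adjusted p = 0.0184, limma). The difference between them was 0.31 ± 0.70 (adjusted p = 0.931, limma), so that a difference of a factor of 2 in either direction lies within 2 standard errors. The size of the rise depended on the processing. With normexp on the median signals, followed by quantile normalization, the change of Nox1 over both genotypes was 1.87. With quantile normalization alone it was 2.41. Both still passed the test, and which step moved the size was not tested.

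The partners of Nox1 measured among the members, Noxa1 and Cyba, did not pass the test. Noxa1, its activator, had levels of 1.80, 0.94, 0.79 and 1.06 in untreated and 1.29, 1.29, 0.86 and 1.30 in DSS-treated wildtype rats, and of 1.31, 1.93, 1.69 and 2.59 in untreated and 2.49, 2.51, 2.67 and 1.68 in DSS-treated Pirc rats. Treated and untreated rats overlapped in both genotypes, and the change over both was 0.25 ± 0.20 (adjusted p = 0.506, limma). Cyba, the membrane subunit, ranged from 6.58 to 6.79 in untreated and 6.54 to 6.84 in treated wildtype rats and from 6.19 to 7.14 and 6.24 to 7.31 in untreated and treated Pirc rats. Its change of 0.16 ± 0.16 over both genotypes did not pass the test (adjusted p = 0.602, limma).

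Nos2 had levels of -4.82, -4.88, -5.11 and -5.22 in untreated wildtype rats and -4.17, -4.40, -4.49 and -4.66 after DSS. Pirc rats had -4.58, -5.05, -5.32 and -4.53 without DSS and -4.63, -3.07, -3.46 and -3.09 with it. In treated Pirc rats 3 were above all untreated rats and rat 12 was not. Nos2 rose by 0.94 ± 0.21 over both genotypes, a factor of 1.92 (adjusted p = 0.00542, limma), and by 1.31 ± 0.29 in Pirc rats (adjusted p = 0.00803, limma). In wildtype rats the change was 0.58 ± 0.29 (adjusted p = 0.346, limma) although the treated and untreated rats did not overlap. The size of the change depended on the processing. With normexp on the median signals, followed by quantile normalization, the change of Nos2 over both genotypes was 0.40. With quantile normalization alone it was 0.77. Both still passed the test, and which step moved the size was not tested.

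Within Pirc rats alone 4 of the 8 members rose after DSS (Duox2, Duoxa2, Nox1 and Nos2), beside 8.14% of all probes. Within wildtype rats 2 rose (Duox2 and Nox1), beside 2.94% of all probes. This count in wildtype rats was between 0 and 2 when 1 rat at a time was left out, and was 0 without untreated rat 13 or treated rat 14. Of the 30367 probes 613 were higher without rat 13 and 339 without rat 14. A difference between the DSS effects was called by limma for 0 of the 8 members, beside 0.0428% of all probes in either direction. At an unadjusted p under 0.05 there were 2 members (Duoxa2 and Duoxa1), beside 10.6% of all probes.

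**Figure D3:**
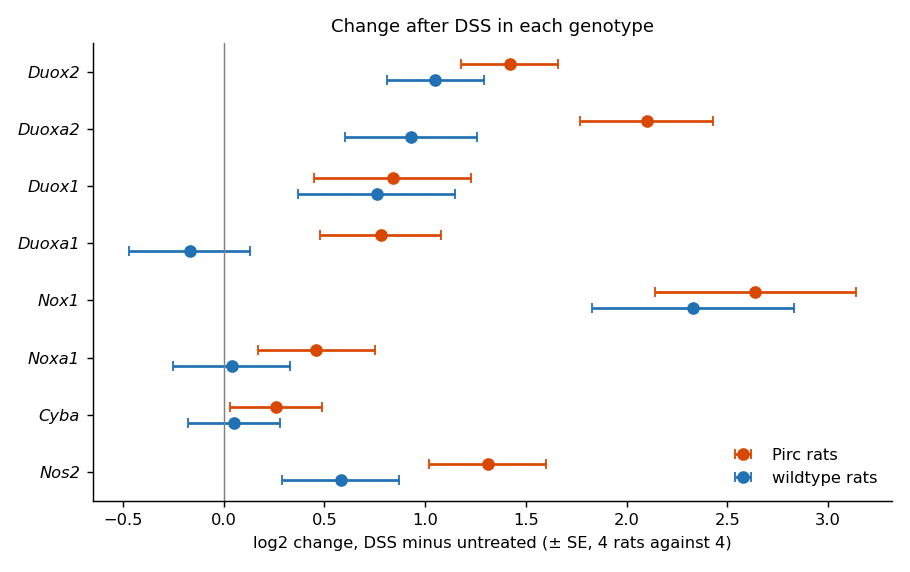
Log2 change after DSS (DSS minus untreated, ± SE from limma, 4 rats against 4) of each measured gene in Pirc rats and in wildtype rats. Nox1 is farthest from 0 in both genotypes (2.64 and 2.33), and Duoxa2 has the widest gap between them (2.10 and 0.93).

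The arrays were on 2 slides, each holding 2 rats of every group, so each change was also taken within each slide. Over both genotypes Duox2 changed by 1.35 and 1.12 within slides 1 and 2, Duoxa2 by 1.44 and 1.59, Nox1 by 3.0 and 1.97, and Nos2 by 0.77 and 1.12. With so few rats, 2 members were called within each slide, Duox2 and Nox1 in slide 1 and Duox2 and Duoxa2 in slide 2. Of the 30367 probes 2035 were higher within slide 1 and 455 within slide 2. With the slide as a block all 4 were called, beside 3246 probes higher. Each group kept 1 column of the slide on both slides, so array column and group cannot be told apart.

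By the same test 7 of 8 measured squamous, 5 of 5 fibroblast, 3 of 9 neutrophil and 4 of 7 macrophage markers rose after DSS over both genotypes. Beside them 10.2% of all probes rose. Of 5 smooth muscle markers 1 rose (Tagln) and 1 fell (Des). The part of these cell types in the changes of the members was not tested. The fibroblast sum, of 5 markers all well above background on every array, was between 1.35 and 1.85 in untreated and 2.55 and 14.3 in treated wildtype rats, and between 1.52 and 2.65 in untreated and 5.43 and 14.6 in treated Pirc rats. The macrophage sum overlapped between all groups, from 8.25 to 15.3, but the Cd14 probe made up 91.0% to 98.3% of it. Without Cd14 the sum was between 0.196 and 0.281 in untreated and 0.301 and 0.667 in treated wildtype rats, and between 0.221 and 0.312 in untreated and 0.462 and 0.827 in treated Pirc rats, with no overlap by treatment in either genotype. Treated wildtype rat 26 had a squamous sum equal to the lowest untreated wildtype rat (0.237). Its fibroblast sum of 2.99, neutrophil sum of 1.01 and smooth muscle sum of 3.95 were above those of the untreated wildtype rats. So were its Duox2 of 4.56, Duoxa2 of -2.46, Nox1 of -2.21 and Nos2 of -4.66. Its Duox1 of -4.80, Duoxa1 of -4.18 and Noxa1 of 1.30 lay within the untreated wildtype ranges, and its Cyba of 6.54 lay below them. The part of squamous epithelium in the levels of this rat was not tested.

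Between genotypes, Duoxa2 was higher in Pirc rats in every comparison of single rats at the same treatment. The difference, Pirc minus wildtype, was 1.73 ± 0.33 without DSS and 2.90 ± 0.33 with it, factors of 3.33 and 7.47. Its groups ranked wildtype untreated, wildtype DSS, Pirc untreated and Pirc DSS by their means of -2.83, -1.89, -1.09 and 1.01, and the middle 2 overlapped, since treated wildtype rat 14 at -0.97 was above 3 of the untreated Pirc rats. Duox2 was higher in Pirc rats by 0.74 ± 0.24 without DSS and 1.11 ± 0.24 with it. The gap between the lowest Pirc and the highest wildtype rat was 0.13 and 0.01 for Duox2, against 1.18 and 1.31 for Duoxa2.

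Noxa1 differed by 0.73 ± 0.29 and 1.16 ± 0.29 without and with DSS, with no overlap in treated rats, where the lowest Pirc rat was at 1.68 and the highest wildtype rat at 1.30. Duoxa1 differed by 0.27 ± 0.30 and 1.22 ± 0.30, and the lowest treated Pirc rat and the highest treated wildtype rat were both at -3.42. Nos2 differed by 0.14 ± 0.29 without and 0.87 ± 0.29 with DSS, Duox1 by 0.34 ± 0.39 and 0.42 ± 0.39, Nox1 by 0.11 ± 0.50 and 0.42 ± 0.50 and Cyba by -0.21 ± 0.23 and 0.00 ± 0.23, all with overlapping rats. Without DSS 2 of the 8 members were higher in Pirc rats with no overlap (Duox2 and Duoxa2), beside 4.69% of all probes, and with DSS 3 (also Noxa1), beside 9.62%. Both Duox2 and Duoxa2 were so at either treatment, which 1.96% of all probes were. These genotype values took part in choosing the list and nothing is read from their counts.

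**Figure D4:**
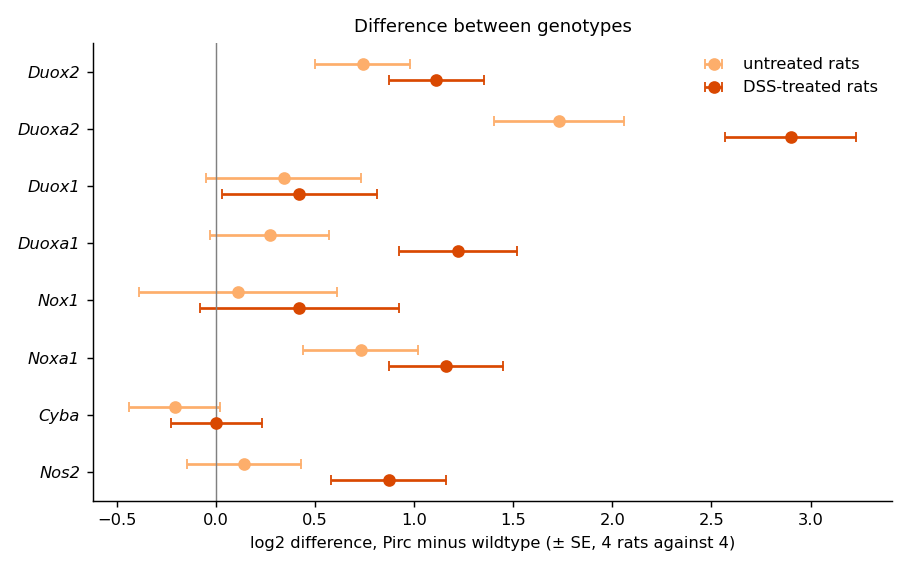
Log2 difference between genotypes (Pirc minus wildtype, ± SE from limma, 4 rats against 4) of each measured gene in untreated and in DSS-treated rats, as a description with no test. Duoxa2 lies farthest to the right at either treatment (1.73 and 2.90) and Cyba lies at -0.21 and 0.00.

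The genes around this pathway were described over both genotypes from 5 lists. Of the phagocyte oxidase, the NADPH oxidase of neutrophils and macrophages that shares p22phox with NOX1, 4 of 5 genes had a probe and all 4 rose after DSS. Its median log2 change was 1.01 against 0.06 over all probes. Rac2, the small GTPase of this enzyme in blood cells, rose by 1.63 ± 0.18 (adjusted p = 3.72e-05, limma), with levels between 0.70 and 1.53 in untreated and 1.92 and 2.65 in treated wildtype rats and between 1.39 and 2.14 and 3.34 and 4.44 in untreated and treated Pirc rats. Ncf4, a cytosolic subunit, rose by 1.21 ± 0.18 (adjusted p = 0.000294, limma) and Ncf1, its organizer, by 0.81 ± 0.12 (adjusted p = 0.000431, limma). All 4 also rose within Pirc and within wildtype rats.

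Among the other NADPH oxidases and nitric oxide synthases all 5 genes had a probe, 2 rose and none fell, with a median change of 0.12. Nos3, the endothelial nitric oxide synthase, rose by 1.26 ± 0.21 (adjusted p = 0.000705, limma), from a probe with both spots well above background on 8 of 16 arrays. Rac1, the GTPase that serves NOX1, rose by 0.45 ± 0.10 (adjusted p = 0.00428, limma). Within Pirc rats both Nos3 and Rac1 passed the test, and within wildtype rats neither did. The other 3 (Nox3, Nox4 and Nos1) were well above background on no array. Of the peroxidases, which use hydrogen peroxide, 2 of 4 genes had a probe and neither was called.

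Of 17 genes that remove hydrogen peroxide and superoxide, all with a probe, 5 rose and none fell, with a median change of 0.12. Gpx2, the glutathione peroxidase of gut epithelium, rose by 1.44 ± 0.17 (adjusted p = 6.72e-05, limma), from levels between 5.19 and 5.77 to between 6.31 and 7.04 in wildtype rats and from between 5.58 and 6.24 to between 6.97 and 8.01 in Pirc rats. These ranges did not overlap in either genotype. Sod3, the extracellular superoxide dismutase, rose by 1.44 ± 0.22 (adjusted p = 0.000387, limma) and Txn1, thioredoxin, by 0.66 ± 0.16 (adjusted p = 0.0116, limma). Catalase and 11 others were not called. Within Pirc rats 4 of the 17 rose by the same test, and within wildtype rats 2 did.

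The 13 genes of arginine and tetrahydrobiopterin supply, on which NOS2 depends for substrate and cofactor, split in direction. With 12 measured, 2 rose, 4 fell and 6 were not called, and the median change was -0.13. Ass1, which remakes arginine from citrulline, rose by 2.90 ± 0.31 (adjusted p = 3.42e-05, limma), with levels between -7.24 and -5.58 in untreated and -4.54 and -4.07 in treated wildtype rats and between -6.25 and -4.63 and -2.28 and -0.32 in untreated and treated Pirc rats. Both spots of its probe were well above background on 14 arrays. Arg1, the arginase that competes for the same arginine, rose by 2.07 ± 0.30 (adjusted p = 0.000255, limma). Its change was 2.80 in Pirc rats (adjusted p = 0.000598, limma), while in wildtype rats 1.34 missed the threshold (adjusted p = 0.101, limma). Pts, an enzyme of tetrahydrobiopterin synthesis, fell by 0.57 ± 0.11 (adjusted p = 0.00266, limma), chosen here after its values were seen as the lowest of the 4 that fell. The change of Pts was -0.86 in Pirc rats (adjusted p = 0.00244, limma), while in wildtype rats -0.29 missed the threshold (adjusted p = 0.41, limma).

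**Figure D5:**
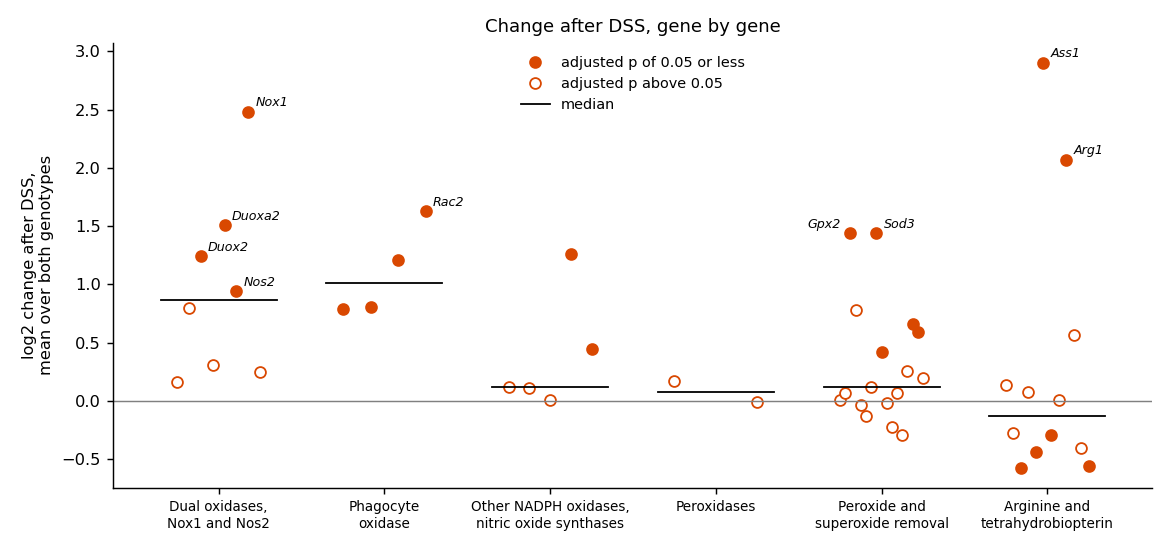
Log2 change after DSS, as the mean over both genotypes, of each measured gene of the members and of 5 related lists; filled points passed the limma test at an adjusted p of 0.05 or less, open points did not, and lines are medians. The phagocyte oxidase genes are all filled, while 12 of 17 removal genes are open and lie between -0.29 and 0.78.

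The genes whose levels followed a member most closely over the 16 arrays were sought among 9927 named genes well above background on every array, by Pearson's r, which here mixes the differences between groups with those between rats. For Duox2 they were Tnf (r = 0.956), Gbp2 (0.95), S100a9 (0.946), Irf5 (0.94) and Sirpa (0.938). Tnf is the inflammatory cytokine and S100a9 a subunit of calprotectin. For Duoxa2 they were Zc3h12a (0.972), an RNase that limits inflammatory transcripts, Cebpd (0.955), Pla2g2a (0.942), a secreted antibacterial phospholipase, Plet1 (0.934) and Fgd6 (0.924).

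For Nox1 they were Ltb (0.97), a cytokine of lymphoid tissue, Col1a1 (0.95), Acvrl1 (0.946), Aebp1 (0.941) and Sparc (0.94), with Col1a1 and Sparc genes of the extracellular matrix. For Nos2 they were Gpha2 (0.96), Chac1 (0.943), Anxa1 (0.941), Rnase1l2 (0.939) and Cflar (0.936). No gene was on more than 1 of these 4 lists.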

How the data were processed

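Total RNA from each rat was amplified, labelled with Cy3 and hybridized to an Agilent one-colour array. The deposited intensity values were made by Agilent Feature Extraction 10.7.3.1, per the file headers, which subtracted background and removed spatial trends but did not normalize between arrays. The labels name Partek for later processing. The files name the build rn4 and give the probe transcripts, and gene symbols were taken from the RefSeq table of GRCr8 by transcript (18006 of 30367 probes matched 1 symbol, 12361 none). Because the builds differ, only names and gene order of that table were used with the arrays. Upstream sequences and their coordinates are those of the RefSeq promoter table on GRCr8 and were not joined to array positions.

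The 4259 control spots were left out, as were outlier-flagged spots, spots of a probe were averaged, and each array was scaled to its 75th percentile (between 875 and 2194 before scaling). Between 71.1% and 80.3% of probes were well above background and none was saturated. Limma 3.58.1 in R 4.3.3 fitted 1 mean per group to all 16 arrays, with Benjamini-Hochberg adjustment over all 30367 probes, and was tested on simulated data. Groups came from the sample titles, and the rat numbers pair no samples. The number of arrays limits the precision. Alternatives were quantile normalization, and normexp on the median signals (offset 50) followed by quantile normalization. Others were a filter on dim probes, a common floor, slide or array row as a block, each slide alone and flagged spots kept. The rest were no moderation, the compared groups alone, other thresholds, and each rat left out. The members and lists were chosen with earlier results of these data known. All 9 members were to be named, at most the 3 largest called genes per related list, and 5 genes per member by likeness. Promoter motifs were chosen after the data were seen.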

Additional observations from a re-analysis of the deposited data

Results flagged for a closer look

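In groups of 4 rats, the highest or lowest value was compared with the rest by Dixon's test at its 95% level for each of the 8 genes in each of the 4 groups. Of these 32 groups 4 were flagged, where chance flags about 1 in 20. Rat 12 was the lowest of the DSS-treated Pirc rats for Duoxa2, at 0.34. Rat 19 was the highest of the untreated Pirc rats for Nox1, at -3.11, and rat 23 the highest of the same group for Cyba, at 7.14. Rat 22 was the lowest of the DSS-treated wildtype rats for Noxa1, at 0.86.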

How the results depend on the processing

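Over both genotypes 4 members were called after DSS under 7 of the alternatives that kept all rats, and 4 or 5 with each rat left out. Of the 30367 probes, between 2597 and 3246 were higher under those 7 and between 2696 and 3439 with each rat left out. The member count was 5 with the filter on dim probes and at an adjusted p of 0.20. It was 3 where the change also had to reach a factor of 2, which Nos2 missed. With the filter 3000 of 21189 probes were higher, and for the other thresholds no count over all probes is given. Within slides 1 and 2, with 2 rats per group, 2 and 2 members were called, beside 2035 and 455 of the 30367 probes higher. In Pirc rats the 4 calls became 0 and 1 within the slides, and with each rat left out the count was 4. Over all probes 1369 and 334 were higher in Pirc rats within the slides, and between 1726 and 3007 with each rat left out. With the compared groups alone Nos2 was lost in Pirc rats. In wildtype rats the 2 calls became 0 within either slide and 1 with the compared groups alone. With each rat left out they numbered between 0 and 2 (0 without rat 13 or 14). Over all probes 613 and 1 were higher in wildtype rats within the slides, and between 339 and 1238 with each rat left out. The count for the difference between DSS effects was 0 under every alternative run. Members without overlap between genotypes numbered 3 (untreated) and 4 (DSS-treated) within slide 1, where 21.8% and 25.5% of all probes had none, and 4 and 6 within slide 2, beside 16.8% and 19.3%. With each rat left out they numbered 2 to 3 (5.48% to 8.23% of all probes when a rat of the compared groups was left out) and 3 to 5 (10.5% to 13.6%).

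The tested changes that turned sign had all missed the threshold. Within slide 1 the change was -0.18 for Duoxa1 over both genotypes and -0.08 for Noxa1 in wildtype rats, and the difference between DSS effects was -0.14 for Duox1 and -0.30 for Nox1. Within slide 2 Cyba changed by -0.09 (both genotypes), -0.14 (Pirc) and -0.04 (wildtype), Duoxa1 by 0.46 in wildtype rats, and the difference was -0.12 for Noxa1 and -0.10 for Cyba. With each rat left out the change in wildtype rats lay between -0.08 and 0.25 for Noxa1 and between -0.43 and 0.03 for Duoxa1, and the difference between -0.19 and 0.51 for Duox1. Of the untested genotype differences, that of Nox1 was -0.25 with DSS and -0.10 over both treatments within slide 1, and in untreated rats it was -0.19 without rat 13 and -0.13 without rat 19, while that of Cyba with DSS, 0.00, fell on either side of 0. The cause was not tested. Averaging all probes of a member was not run, since each has 1 probe. No paired analysis was possible because no groups share rat numbers.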
